A study of Homo sapiens with 6 samples.

Results

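The genes described here are 31 genes of cholesterol and fatty acid synthesis, out of 23519 genes measured in every table of the series. They were taken by symbol from a fixed list, which was chosen with earlier results of these data known. The list holds 18 enzymes that lead from acetyl-CoA to cholesterol (sterol enzymes), 8 enzymes that make, lengthen or desaturate fatty acids or supply their acetyl-CoA (fatty acid enzymes), and 5 genes of the control system and sterol transport. All 31 were found in every table and all 31 had a mean value of at least 10, so none was lost to the filter on low values.

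The cells were SKM-1, an established human acute myeloid leukaemia line, and their poly-A RNA was sequenced in 6 libraries. The untreated group had 2 libraries, the group treated with BOR had 2, and the group treated with VEM and the group treated with VEM and BOR together (VEM+BOR) had 1 each. The series title names vemurafenib, an inhibitor of RAF kinases, which VEM stands for, and the labels do not spell out BOR. The sources used here name no doses, no times and no separate cultures, so the p-values reflect only how far these libraries spread, and that spread may be technical.

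Cells make cholesterol from acetyl-CoA through mevalonate, the isoprenoid diphosphates, squalene and lanosterol. Membrane-bound transcription factors, the sterol regulatory element-binding proteins (SREBPs), control most of these enzymes. SCAP carries an SREBP from the endoplasmic reticulum to the Golgi, where it is cut and freed, and the INSIG proteins hold SCAP back when sterols are plentiful. The SREBF2 product acts mainly on sterol genes and the SREBF1 products mainly on fatty acid genes, and INSIG1 and SREBF2 are themselves SREBP targets.

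Values are normalised read counts on 1 scale over the tables, and log2 differences use log2(value + 1). Reads assigned to genes, recovered from the normalised values, were similar, from 17252404 in VEM to 18507606 in BOR 2. The recovery of the VEM reads could not be checked. BOR 2 stood apart. Over the 15438 genes with a mean of at least 10, log2 differences from untreated cells had an SD of 1.46 in BOR 2, against 0.38 in BOR 1, 0.50 in VEM and 0.53 in VEM+BOR. The scale of BOR 2 also depended on the method, since scaling by library totals moved its median over all genes from 0.04 to -0.55 on the log2 scale. All 7 myeloid markers were present in every library, with a summed value of 96550 and 113400 in the untreated libraries, 108900 and 141000 in BOR 1 and 2, 45280 in VEM and 43590 in VEM+BOR. Among them PTPRC was at 265.4 in BOR 2 and between 2880 and 4514 elsewhere. MPO, ELANE and LYZ differed in the opposite direction. MPO was at 41390 in BOR 2 against 18450 and 15240 in untreated cells. ELANE was at 34980 against 18020 and 31960, and LYZ at 82.7 against 22.77 and 9.676. LYZ was higher still in BOR 1, at 142.5. CSF3R was at 3018 in BOR 2, below both untreated libraries at 4899 and 3087. PRTN3, at 54220 in BOR 2, lay above both untreated libraries, and SPI1, at 7085, lay between them. Of 13 markers of other cell types 5 were in all tables, and their summed value lay between 87.08 and 278.5. The myeloid sum was lowest in VEM and VEM+BOR, where MPO, ELANE and PRTN3 lay below both untreated libraries. PRTN3, the largest part of the sum, was at 17290 and 16540 there, against 46550 and 52910 in untreated cells. The other myeloid markers did not follow. PTPRC (4514) and LYZ (44.36) lay above both untreated libraries in VEM+BOR, and SPI1 and CSF3R lay between them in VEM and VEM+BOR. In VEM, PTPRC lay below both and LYZ between them. The sum for other cell types had both its extremes in the untreated libraries. Mitochondrial genes took 3.14% of reads in BOR 2, the lowest share, and between 4.23% and 5.40% elsewhere. The part of these values in the results below was not tested. In bulk RNA, fewer cells that express a gene and less of its RNA per cell cannot be told apart.

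Promoter sequences are shown for 6 members on which the results turn: SREBF2 and INSIG1 of the control system, HMGCS1 and MSMO1 of the sterol pathway, and SCD and FADS2 of fatty acid desaturation. They come from RefSeq on GRCh38.p14. Each is the 250 bases before the listed gene start, cut short where an annotated exon of the gene falls within them. They are printed 5′ to 3′ on the strand of the gene. Capitals mark CCAAT or its complement ATTGG, the core of the box bound by NF-Y, and, as the longer capital run in SREBF2, a 10-base sequence of the sterol regulatory element type. The stretches span chr22:41832855-41833078 (plus strand) for SREBF2, chr7:155297628-155297775 (plus) for INSIG1, chr5:43313513-43313662 (minus) for HMGCS1, chr4:165327419-165327622 (plus) for MSMO1, chr10:100346983-100347123 (plus) for SCD and chr11:61815953-61816202 (plus) for FADS2. The FADS2 stretch lies before an internal start of the gene, inside the span given in the deposited tables.
SREBF2: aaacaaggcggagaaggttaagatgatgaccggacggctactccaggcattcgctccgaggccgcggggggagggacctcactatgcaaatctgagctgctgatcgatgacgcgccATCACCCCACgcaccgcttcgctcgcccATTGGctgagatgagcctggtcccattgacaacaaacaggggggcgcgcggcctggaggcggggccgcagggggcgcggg
INSIG1: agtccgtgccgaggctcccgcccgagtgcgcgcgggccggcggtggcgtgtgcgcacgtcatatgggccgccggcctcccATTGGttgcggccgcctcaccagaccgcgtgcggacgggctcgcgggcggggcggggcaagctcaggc
HMGCS1: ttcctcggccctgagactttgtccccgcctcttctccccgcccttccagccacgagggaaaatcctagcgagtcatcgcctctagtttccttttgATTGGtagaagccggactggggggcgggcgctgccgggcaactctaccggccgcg
MSMO1: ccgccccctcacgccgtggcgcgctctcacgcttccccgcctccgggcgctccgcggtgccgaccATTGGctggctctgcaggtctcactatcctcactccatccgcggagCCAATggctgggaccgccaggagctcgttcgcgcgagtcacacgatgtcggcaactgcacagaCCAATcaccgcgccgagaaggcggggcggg
SCD: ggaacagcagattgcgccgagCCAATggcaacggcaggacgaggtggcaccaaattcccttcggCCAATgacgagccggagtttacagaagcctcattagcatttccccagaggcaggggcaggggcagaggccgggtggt
FADS2: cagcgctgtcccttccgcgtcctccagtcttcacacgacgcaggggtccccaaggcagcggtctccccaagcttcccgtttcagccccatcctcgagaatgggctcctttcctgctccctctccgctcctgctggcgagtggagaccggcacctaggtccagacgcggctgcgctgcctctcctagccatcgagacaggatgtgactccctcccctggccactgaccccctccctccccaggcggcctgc
The SREBF2 stretch held the 10-base element beginning 134 bases before the listed start and ATTGG beginning 106 bases before it. The MSMO1 stretch held 3 marked CCAAT or ATTGG sequences, the SCD stretch 2, the INSIG1 and HMGCS1 stretches 1 each, and the FADS2 stretch none.

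A window of 250 bases was found for 27 of the 31 members, and both strands were searched. CCAAT was in 18 of these 27 windows (66.7%), against 34.6% of the 10541 tested genes that have a window and 33% of all 27305 windows. It was in 12 of 15 sterol enzyme windows, in 3 of 7 fatty acid enzyme windows and in 3 of 5 windows of the control and transport genes. MVK and NSDHL had 5 copies each, and CYP51A1, IDI1 and PMVK had 0 among the sterol enzymes. Each window was that of the first listed start, which need not be the start of the measured gene model. The IDI1 window, chr10:1056705-1056954, lay away from its model, which ends at 1049170 on the minus strand. Some windows, among them those of DHCR7, ACLY and ACSS2, lay inside the span of the model. GGGCGG, the box bound by SP1, was in 25 of 27 windows (92.6%), against 67.4% of tested genes. The 10-base element was in the SREBF2 window alone among the 27, and in 6 of the tested genes (0.0569%). The shorter form TCACNCCAC, which overlaps that element and was added after the windows had been searched, was likewise in 1 member window, against 0.892% of tested genes. CACGTG, the E-box, was in 3 of 27 windows (11.1%), those of INSIG1, SCAP and SC5D, against 9.15% of tested genes. A match describes the letters in the window and does not show that a factor binds there.

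Levels of different members were compared per kilobase of gene length, as the mean of the 2 untreated libraries. The isomerase EBP was highest at 5471 normalised reads per kilobase, followed by FASN at 2120, the kinase PMVK at 1800, ACLY at 1575 and SCD at 1428. CYP51A1 was lowest at 36.2, with MVK at 53.6, HSD17B7 at 59.1, SC5D at 66.3 and ACSS2 at 69.5. CYP51A1 shares 79.4% of its exon bases with another gene model on the same strand, so its level and its last place are uncertain. Sterol enzymes held both ends of the range, also with CYP51A1 set aside, and 3 of the 8 fatty acid enzymes were among the 5 highest members. Neighbours in this order often overlapped. FASN ran from 1759 to 2481 per kilobase in the untreated libraries and PMVK from 1605 to 1996, whereas EBP, between 5220 and 5722, lay clear of all other members.

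**Figure D1:**
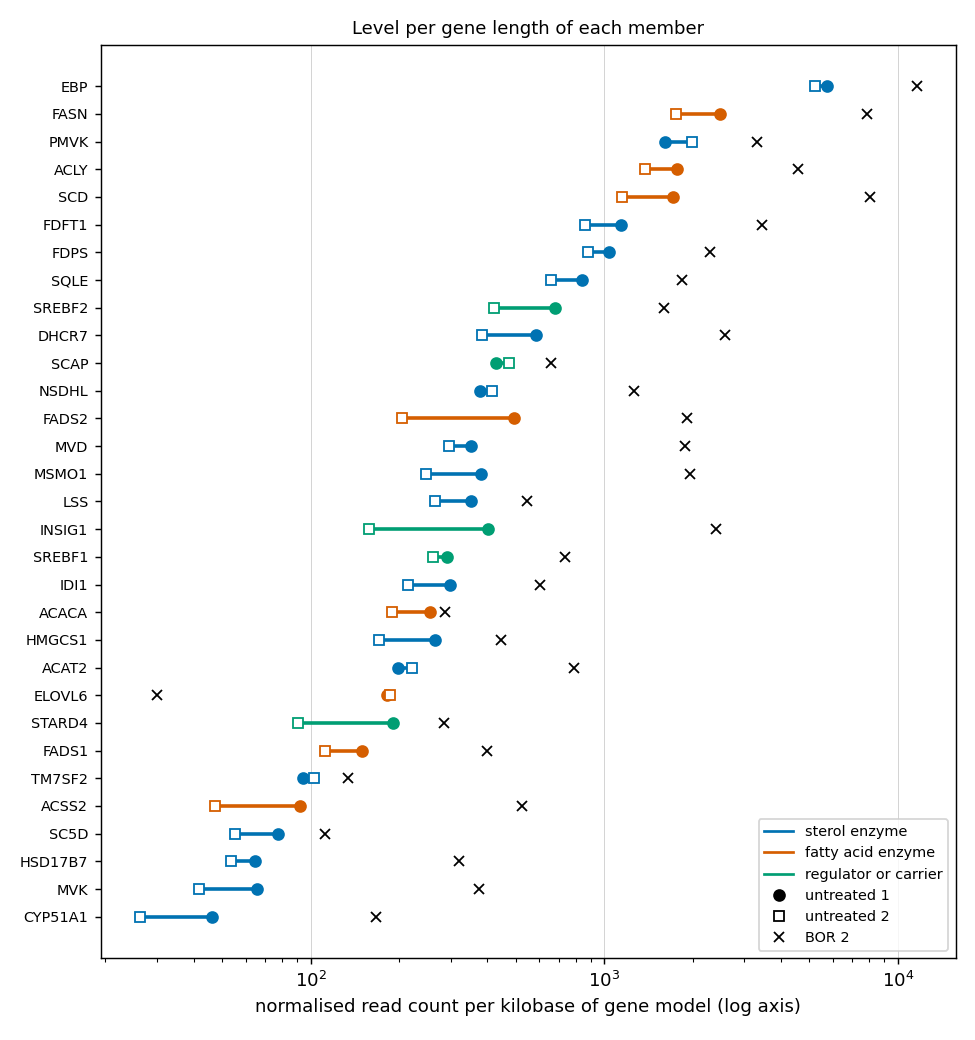
Normalised read count per kilobase of gene model (log axis) of the 31 members in untreated 1 (filled circles), untreated 2 (open squares) and BOR 2 (crosses), with a line joining the untreated pair and colour giving the list. EBP is the highest member at an untreated mean of 5471 and CYP51A1 the lowest at 36.2. The CYP51A1 level is uncertain, since 79.4% of its exon bases are shared with another gene model. ELOVL6 is the only member whose BOR 2 cross lies left of both untreated points.

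The difference between the 2 untreated libraries is the yardstick for all that follows, and it was itself large for these genes. Untreated 2 was lower than untreated 1 for 25 of 31 members, where 49.6% of all 15438 genes were lower. It was lower by more than 0.5 on the log2 scale for 11 members, where the share of all genes was 22%. The median log2 difference, untreated 2 minus untreated 1, was -0.38 over the sterol enzymes, -0.47 over the fatty acid enzymes and -0.69 over the control and transport genes, against 0.01 over all genes. Untreated 2 was the lowest of all 6 libraries for 21 members, namely 12 of 18 sterol enzymes, 6 of 8 fatty acid enzymes and 3 of 5 control and transport genes, where 16.9% of all genes had their lowest value there. The widest gaps were those of INSIG1 at -1.34, FADS2 at -1.27, STARD4 at -1.07, ACSS2 at -0.96 and CYP51A1 at -0.81. The 6 members that were higher in untreated 2 were PMVK, ACAT2, SCAP, NSDHL, TM7SF2 and ELOVL6, by 0.04 (ELOVL6) to 0.31 (PMVK).

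**Figure D2:**
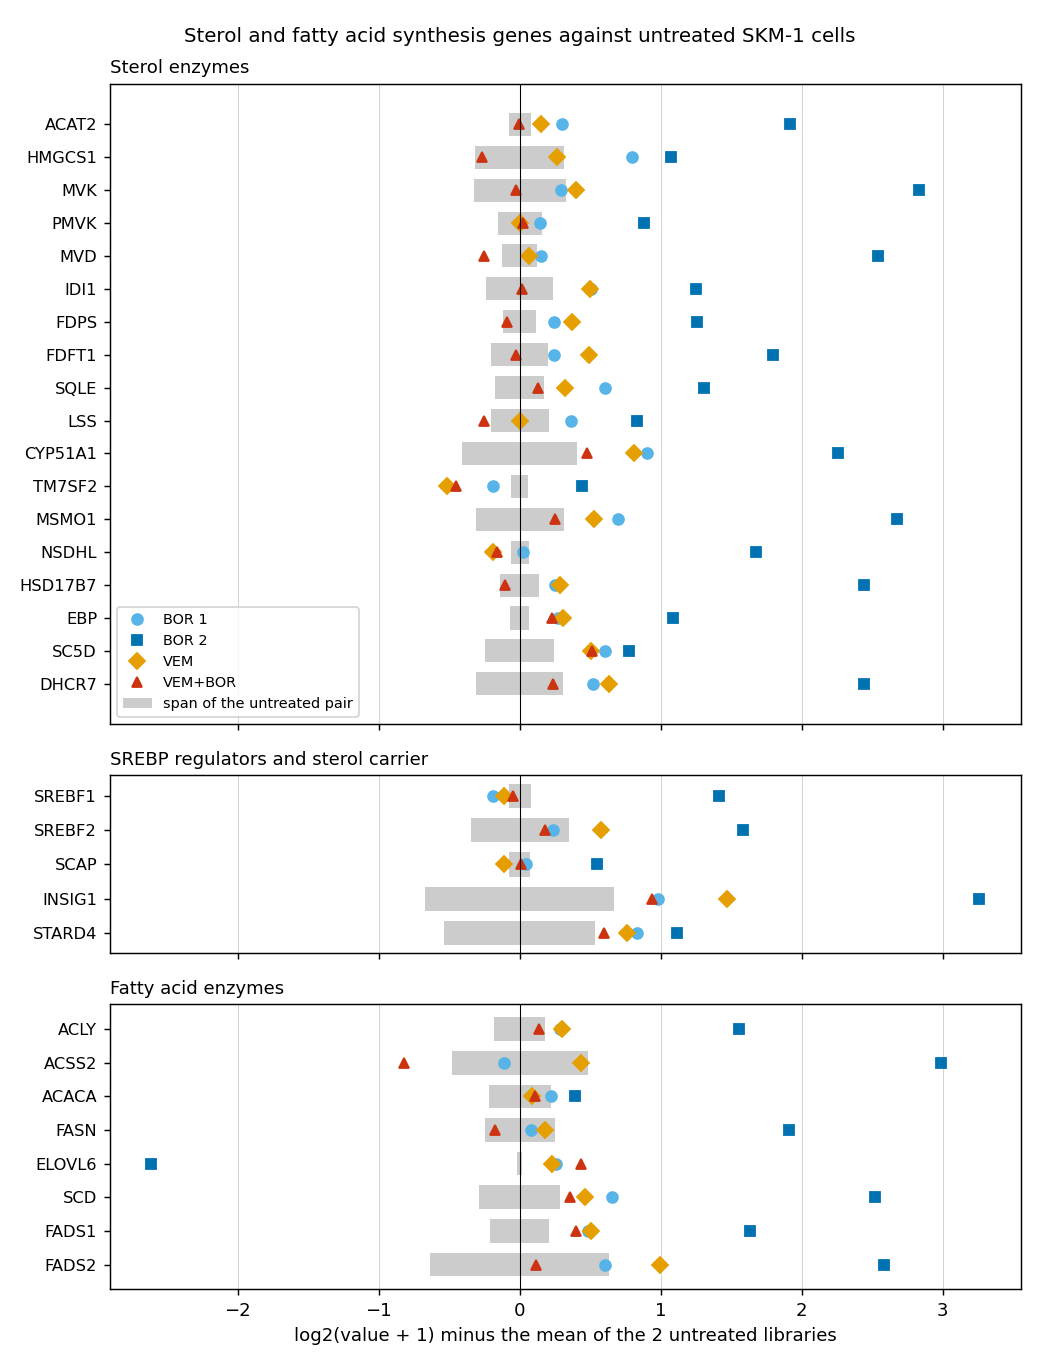
Log2 difference of each treated library from the mean of the 2 untreated libraries for every member, with BOR 1 as circles, BOR 2 as squares, VEM as diamonds, VEM+BOR as triangles and the span of the untreated pair as grey bars. The squares of BOR 2 lie right of the grey bars for 30 of 31 members and left of it for ELOVL6 at -2.61, while many other symbols lie on or near the bars.

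The opening steps of the sterol pathway join acetyl-CoA units into HMG-CoA. HMGCS1 (ENSG00000112972, chr5:43289395-43313512), the HMG-CoA synthase, was at 1245 and 801.1 in untreated 1 and 2, 1732 and 2098 in BOR 1 and 2, 1201 in VEM and 829.2 in VEM+BOR. Both BOR libraries lay above both untreated libraries, and VEM and VEM+BOR lay between the untreated values. BOR 1 and BOR 2 differed by 0.28 on the log2 scale for this gene, against a median of 1.35 over the 31 members. ACAT2, which makes acetoacetyl-CoA, ranged from 851.3 in untreated 1 to 1105 in BOR 1 and stood at 3395 in BOR 2. The ACAT2 model shares exon bases with 3 gene models on the other strand, up to 33.9% of its own with 1 of them, and HMGCS1 shares 14.95% with AC114947.2, also on the other strand, so reads of both are uncertain.

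From mevalonate to farnesyl diphosphate the enzymes split in how far BOR 2 stood from the rest. MVK, the mevalonate kinase, was at 424.8 and 269.9 in untreated cells, 415.6 in BOR 1, 2421 in BOR 2, 446.6 in VEM and 332.2 in VEM+BOR. MVD, which decarboxylates mevalonate diphosphate to isopentenyl diphosphate, was at 1657 and 1399 in untreated cells, 1687 in BOR 1, 8867 in BOR 2, 1597 in VEM and 1276 in VEM+BOR. For both genes BOR 2 was the single high library, 6.97-fold and 5.80-fold above the untreated mean, and BOR 1 was 0.29 and 0.15 above the untreated mean on the log2 scale. PMVK, IDI1 and FDPS, which phosphorylate, isomerise and condense the intermediates, were 1.84-fold, 2.35-fold and 2.38-fold above the untreated mean in BOR 2. In VEM+BOR these 5 enzymes had values of 332.2 (MVK) to 3329 (FDPS), and MVD was the member of this step that lay below both untreated libraries. FDPS has 8 pseudogenes by name and shares 18.6% of its exon bases with RUSC1-AS1 on the other strand, and IDI1 shares 14.8% with IDI2-AS1, so reads of these genes may be split.

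Squalene and lanosterol are formed by FDFT1, SQLE and LSS. SQLE (ENSG00000104549, chr8:124998497-125022283), the squalene epoxidase and a control point of the pathway, was at 3607 and 2836 in untreated cells, 4867 in BOR 1, 7936 in BOR 2, 4003 in VEM and 3506 in VEM+BOR. BOR 1, BOR 2 and VEM lay above both untreated libraries and VEM+BOR lay between them. FDFT1, the squalene synthase, was 3.45-fold above the untreated mean in BOR 2 and 0.97-fold in VEM+BOR. LSS, the lanosterol synthase, was 1.76-fold in BOR 2, 1.27-fold in BOR 1 and 0.83-fold in VEM+BOR, where it lay below both untreated libraries. With libraries scaled to their totals LSS lay between the untreated libraries in BOR 2 and in VEM+BOR.

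The enzymes from lanosterol to cholesterol numbered 8, and BOR 2 was above both untreated libraries for all 8, but with libraries scaled to their totals it lay between them for SC5D and below both for TM7SF2. CYP51A1, the lanosterol demethylase, was at 165.5 and 93.9 in untreated cells, 233.8 in BOR 1, 600.2 in BOR 2, 219.2 in VEM and 173.8 in VEM+BOR. All 4 treated libraries lay above both untreated libraries, though VEM+BOR was near untreated 1 and lay between them when libraries were scaled to their totals. CYP51A1 shares 79.4% of its exon bases with an overlapping gene model on the same strand (AC000120.2), so its reads are uncertain. MSMO1 (ENSG00000052802, chr4:165327623-165343160), the methylsterol monooxygenase, was at 1099 and 713.1 in untreated cells, 1438 in BOR 1, 5675 in BOR 2, 1276 in VEM and 1051 in VEM+BOR. DHCR7, which reduces the last double bond on the way to cholesterol, was at 2442 and 1594 in untreated cells, 2833 in BOR 1, 10710 in BOR 2, 3063 in VEM and 2325 in VEM+BOR. For MSMO1 and DHCR7 the BOR libraries and VEM lay above both untreated libraries, and VEM+BOR lay within the untreated span.

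Among the remaining late enzymes, HSD17B7, a sterol ketone reductase, was at 309.2 and 255.4 in untreated cells, 334.3 in BOR 1, 1531 in BOR 2, 342.9 in VEM and 261.6 in VEM+BOR. SC5D, a sterol desaturase, was at 430.9 and 306.7 in untreated cells, 554.5 in BOR 1, 622.9 in BOR 2, 517.5 in VEM and 518.7 in VEM+BOR. HSD17B7 was highest in BOR 2, with BOR 1 and VEM also above both untreated libraries, and SC5D had its 4 treated libraries above both untreated ones. TM7SF2, a sterol reductase, was at 321.4 and 349.3 in untreated cells, 293.2 in BOR 1, 454.8 in BOR 2, 234.7 in VEM and 244.4 in VEM+BOR. It was the sterol enzyme with BOR 1, VEM and VEM+BOR all below both untreated libraries. NSDHL, which removes methyl groups as a decarboxylating dehydrogenase, was below both untreated libraries in VEM (692.1) and VEM+BOR (706.1) and at 2529 in BOR 2. EBP ranged from 12570 in untreated 2 to 16270 in VEM and reached 27930 in BOR 2.

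The control and transport genes included INSIG1, the member with the widest untreated gap. INSIG1 (ENSG00000186480, chr7:155297776-155310235), the SCAP anchor, was at 1464 and 575.7 in untreated cells, 1812 in BOR 1, 8798 in BOR 2, 2548 in VEM and 1757 in VEM+BOR. STARD4 (ENSG00000164211, chr5:111496033-111512590), a cytosolic sterol carrier, was at 1085 and 514.7 in untreated cells, 1334 in BOR 1, 1619 in BOR 2, 1266 in VEM and 1133 in VEM+BOR. INSIG1 and STARD4 were above both untreated libraries in all 4 treated libraries, but untreated 1 was nearer to BOR 1 and VEM+BOR than to untreated 2. With libraries scaled to their totals STARD4 in BOR 2 and VEM+BOR lay between the untreated libraries. SREBF2 (ENSG00000198911, chr22:41833079-41907308), the gene of the factor that acts mainly on sterol genes, was at 5132 and 3171 in untreated cells, 4750 in BOR 1, 12090 in BOR 2, 6012 in VEM and 4574 in VEM+BOR. SREBF1, the gene of the factors that act mainly on fatty acid genes, was at 2335 and 2094 in untreated cells, 1943 in BOR 1, 5884 in BOR 2, 2049 in VEM and 2144 in VEM+BOR. BOR 2 was high for both SREBP genes, while the untreated gap was -0.69 for SREBF2 and -0.16 for SREBF1. SCAP was at 2749 and 3057 in untreated cells, 2997 in BOR 1, 4231 in BOR 2, 2685 in VEM and 2922 in VEM+BOR. On this scale only BOR 2 lay far from the rest. With libraries scaled to their totals SCAP in BOR 2 lay below both untreated libraries.

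Acetyl-CoA for synthesis is supplied by ACLY from citrate and by ACSS2 from acetate. ACSS2 (ENSG00000131069, chr20:34872146-34927962) was at 494.9 and 253.5 in untreated cells, 327.9 in BOR 1, 2825 in BOR 2, 478.4 in VEM and 200.1 in VEM+BOR. BOR 2 was the only library above the untreated pair, and VEM+BOR was the only one below it, 2.39-fold lower than VEM. ACLY was 2.91-fold above the untreated mean in BOR 2 and between 1.09-fold and 1.22-fold in the other treated libraries.

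Chain synthesis runs through ACACA, which makes malonyl-CoA, FASN, the fatty acid synthase, and ELOVL6, which lengthens palmitate. FASN (ENSG00000169710, chr17:82078333-82098332) was at 23240 and 16470 in untreated cells, 20680 in BOR 1, 73740 in BOR 2, 22200 in VEM and 17310 in VEM+BOR. Except for BOR 2, every treated library lay inside the untreated span. ELOVL6 (ENSG00000170522, chr4:110045846-110199199) was at 1329 and 1362 in untreated cells, 1606 in BOR 1, 218.7 in BOR 2, 1576 in VEM and 1815 in VEM+BOR. It was the only member with BOR 2 lowest of the 6 libraries, and the only one with VEM+BOR highest. ACACA ranged from 2452 in untreated 2 to 3739 in BOR 2.

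The desaturases SCD, which makes monounsaturated fatty acids, and FADS1 and FADS2, which make polyunsaturated ones, were all highest in BOR 2 and lowest in untreated 2. SCD (ENSG00000099194, chr10:100347124-100364834) was at 9168 and 6146 in untreated cells, 11840 in BOR 1, 43130 in BOR 2, 10360 in VEM and 9610 in VEM+BOR. FADS2 (ENSG00000134824, chr11:61792980-61867354) was at 5448 and 2256 in untreated cells, 5341 in BOR 1, 21030 in BOR 2, 6980 in VEM and 3794 in VEM+BOR. FADS1 was at 1524 and 1143 in untreated cells, 1848 in BOR 1, 4091 in BOR 2, 1874 in VEM and 1743 in VEM+BOR. SCD and FADS1 lay above both untreated libraries in all 4 treated libraries, except that SCD in VEM+BOR lay between them with libraries scaled to their totals, whereas BOR 1 and VEM+BOR lay inside the wide untreated span of FADS2. FADS1 and FADS2 share 490 exon bases on opposite strands, so some of their reads cannot be told apart.

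**Figure D3:**
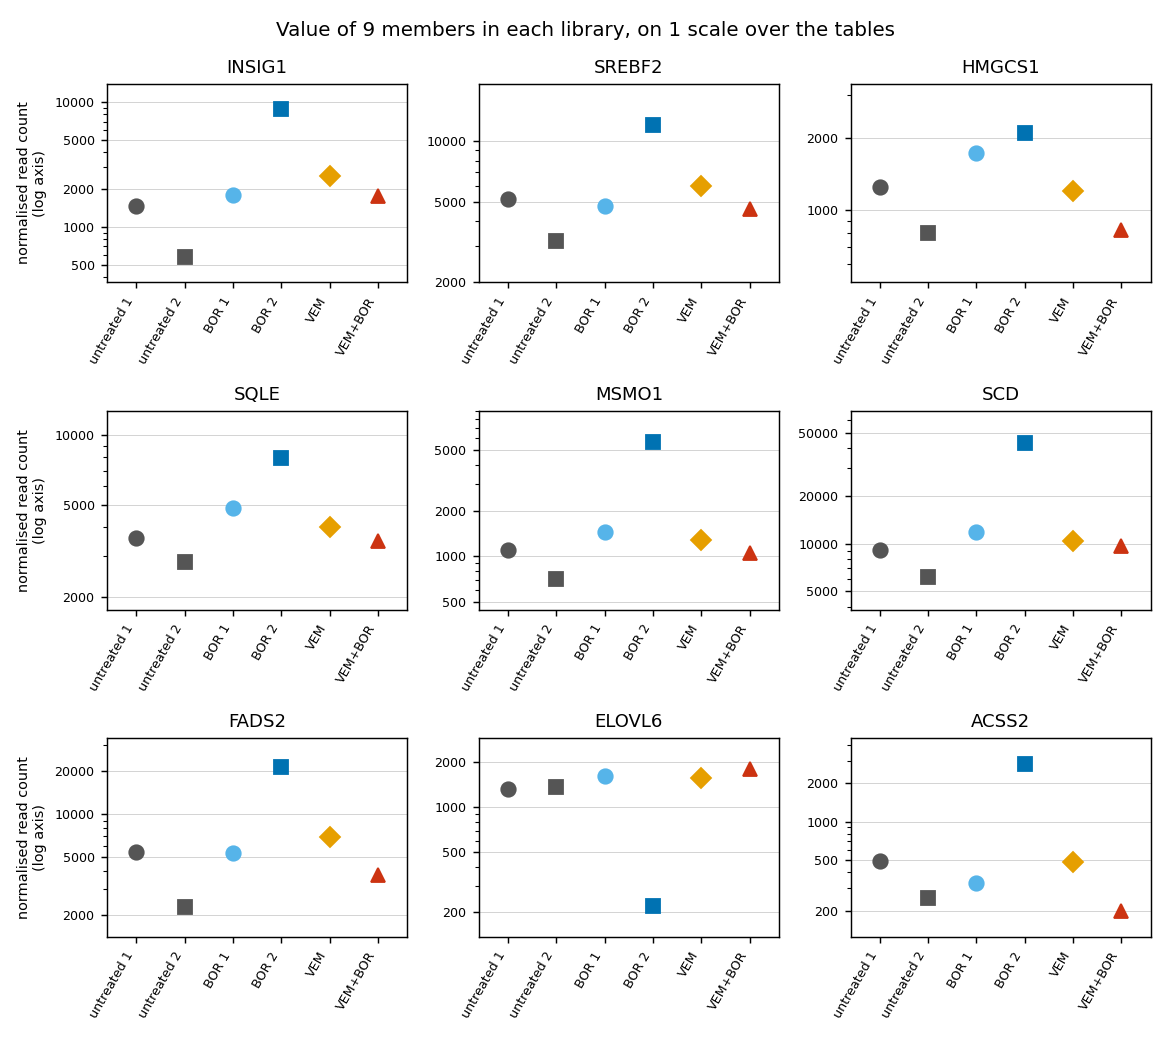
Normalised read counts (log axes) of 9 members in each of the 6 libraries, with untreated and BOR libraries in pairs of circle (1) and square (2), VEM as diamonds and VEM+BOR as triangles. BOR 2 is highest for 8 of the 9 and lowest for ELOVL6 at 218.7, and untreated 2 is lowest for 7 of them, from INSIG1 at 575.7 to SCD at 6146.

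The comparison of BOR with untreated cells asks how the compound alone relates to these transcripts. On the printed scale, BOR 2 was highest of the 6 libraries for 30 members, where 39.3% of all genes had their highest value. It was lowest for ELOVL6, where 37.5% of all genes had their lowest. In BOR 1 the differences were small, with 21 of 31 members above both untreated libraries, where 29.9% of all genes were. In BOR 2 they were large, with 30 of 31 above, where 43.8% of all genes were, and 1 (ELOVL6) below, where 41.7% were. On the printed scale 24 members were at least 2-fold above the untreated mean, where 15.7% of all genes were. In BOR 1, 0 members were 2-fold above, where 1.05% of all genes were. Both BOR libraries lay above both untreated ones for 20 members, 14 of 18 sterol enzymes, 4 of 8 fatty acid enzymes and 2 of 5 control and transport genes, where the share of all genes was 11.5%. Both lay below for 0 members, where the share was 8.45%. BOR 1 was below both untreated libraries for TM7SF2 and SREBF1, where 20.7% of all genes were below.

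The median log2 change in the BOR fit was 0.95 over the sterol enzymes (range 0.13 to 1.69, 18 of 18 positive), 1.03 over the fatty acid enzymes (range -1.18 to 1.60, 7 of 8 positive) and 0.91 over the control and transport genes, against 0.04 over all 15382 genes tested, of which 52.4% were positive. INSIG1 had the largest change at 2.12 (SE 0.86), followed by MSMO1 at 1.69 (SE 0.72), FADS2 at 1.60 (SE 0.79) and SCD at 1.59 (SE 0.71). CYP51A1 followed at 1.58, MVK at 1.57, DHCR7 at 1.48 and ACSS2 at 1.44. None of the 31 members passed limma at an adjusted p under 0.05. The smallest adjusted p was 0.968, and 1 member, INSIG1, had an unadjusted p under 0.05. Over all genes limma called 0% in this comparison, and 0.247% had an unadjusted p under 0.05. On the recovered reads edgeR called 0 members with 2 at an unadjusted p under 0.05, and DESeq2 called 0 with 10. In the authors' deposited table the smallest adjusted p of a member was that of INSIG1, 0.394, with a log2 fold change of 2.38.

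These values rested on BOR 2. Without BOR 1 the medians were 1.50 for sterol and 1.77 for fatty acid enzymes, and 21 members were called higher and 1, ELOVL6 at -2.61, lower, among 4008 genes called of 15371. Without BOR 2 the medians were 0.30 and 0.27, 0 members were called, and 4 members turned sign. On its own BOR 1 placed ELOVL6 at 0.26, ACSS2 at -0.11, and SREBF1 and TM7SF2 at -0.19 on the log2 scale. With libraries scaled to their totals, BOR 2 lay above both untreated libraries for 24 of 31 members, where 23.3% of all genes did. Members then no longer highest in BOR 2 were HMGCS1, LSS, SC5D, STARD4, TM7SF2, SCAP and ACACA. The median of BOR 2 over the 31 members was then 0.98, beside 1.58 on the printed scale. TM7SF2, SCAP and ACACA turned negative in BOR 2 under that scaling, at -0.16, -0.05 and -0.21, and TM7SF2 also turned in the BOR fit, to -0.17. BOR 1 was above for 21 members under both scalings, but the members differed. With library totals MVD, FDFT1 and ACACA lay between the untreated libraries in BOR 1, while PMVK, NSDHL and SCAP lay above both. SREBF1 was then no longer below both in BOR 1.

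The comparison of VEM with untreated cells asks how these transcripts differ after the RAF inhibitor. VEM lay above both untreated libraries for 20 of 31 members, where 30.9% of all genes did, and below both for 4, where 27.3% did. Those above were 12 of 18 sterol enzymes, 5 of 8 fatty acid enzymes and 3 of 5 control and transport genes. Those below were TM7SF2, NSDHL, SREBF1 and SCAP. The distance from the untreated mean was larger than the untreated gap for 12 members, where 34.7% of all genes passed that mark. That share is close to the background.

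INSIG1 was 2548 in VEM against 1020 ± 628 (SD, n = 2), a log2 change of 1.47 (SE 0.45, limma adjusted p = 0.774). FADS2 was 6980 against 3852 ± 2257 (SD, n = 2), a log2 change of 0.99 (SE 0.47). CYP51A1 followed at 0.80, STARD4 at 0.75, DHCR7 at 0.63, SREBF2 at 0.57, MSMO1 at 0.52, FADS1 at 0.50 and SCD at 0.46, and TM7SF2 was at -0.52. The median was 0.31 over the sterol enzymes (14 of 18 positive) and 0.36 over the fatty acid enzymes (8 of 8 positive), against 0.00 over all 15689 genes tested, of which 50.2% were positive. None of the 31 members passed limma, where 0.0446% of all genes passed, and 2 members, INSIG1 and FADS2, had an unadjusted p under 0.05, where 2.54% of all genes did. Scaling by library totals alone among the alternatives brought a member past the threshold, INSIG1 at 1.53 (adjusted p = 0.0244). Against untreated 1 alone the medians were 0.19 for sterol and 0.15 for fatty acid enzymes, and against untreated 2 alone 0.49 and 0.60. VEM was above untreated 1 for 21 members, where 53.1% of all genes were.

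The comparison of VEM+BOR with untreated cells asks the same of the combination. It lay above both untreated libraries for 8 of 31 members, where 31.5% of all genes did, and below both for 5, where 26.6% did. Most members therefore sat within the untreated span. Those above were CYP51A1, EBP, SC5D, INSIG1, STARD4, ELOVL6, SCD and FADS1, and those below were MVD, LSS, TM7SF2, NSDHL and ACSS2. With libraries scaled to their totals VEM+BOR lay above both for 5 members, where 28.5% of all genes did, with CYP51A1, STARD4 and SCD between the untreated libraries. LSS was then between them too, and ACAT2 below both. The distance from the untreated mean was larger than the untreated gap for 6 members, where 37.4% of all genes passed that mark.

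INSIG1 had the largest log2 change in VEM+BOR at 0.92 (SE 0.44) and ACSS2 the next at -0.83 (SE 0.46). STARD4 followed at 0.59, SC5D at 0.50, TM7SF2 at -0.47, CYP51A1 at 0.46, ELOVL6 at 0.42 and FADS1 at 0.39. HMGCS1 was at -0.28 and MVD at -0.27. The median was -0.03 over the sterol enzymes (8 of 18 positive) and 0.11 over the fatty acid enzymes (6 of 8 positive), against 0.01 over all 15606 genes tested, of which 51.2% were positive. None of the 31 members passed limma, where 0.192% of all genes passed, and 0 had an unadjusted p under 0.05, where 3.01% of all genes did. On recovered reads edgeR called 0 members with 2 at an unadjusted p under 0.05, and DESeq2 called 0 with 0. Against untreated 1 alone the medians were -0.16 for sterol and -0.08 for fatty acid enzymes, and against untreated 2 alone 0.11 and 0.37. VEM+BOR was above untreated 1 for 11 members, where 54.1% of all genes were. Members near 0 turned sign with the scaling or the tool, among them PMVK, IDI1, SCAP and FADS2.

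Both libraries with VEM were then set against both untreated libraries. The libraries with VEM differ in BOR, so their spread, and with it each SE and p-value, holds that difference too. VEM and VEM+BOR lay together above both untreated libraries for 8 members, where 19.4% of all genes did, namely the same 8 that VEM+BOR placed above, of which CYP51A1, STARD4 and SCD left this group when libraries were scaled to their totals. They lay together below for 2, TM7SF2 and NSDHL, where 14.4% of all genes did. The log2 change was 1.204 for INSIG1 (SE 0.39, limma adjusted p = 0.491), 0.68 for STARD4, 0.64 for CYP51A1, 0.55 for FADS2, 0.51 for SC5D, 0.45 for FADS1 and -0.48 for TM7SF2. The median was 0.16 over the sterol enzymes, 0.27 over the fatty acid enzymes and 0.38 over the control and transport genes, against 0.01 over all 15442 genes tested. None of the 31 members passed limma, where 0.22% of all genes passed, and INSIG1 alone had an unadjusted p under 0.05, where 6.25% of all genes did.

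This comparison rested on which untreated library was kept. With an untreated library left out, the difference between VEM and VEM+BOR alone gave the spread, although these are different treatments. Without untreated 1, limma called 6 members higher, INSIG1 at 1.88, STARD4 at 1.22, FADS2 at 1.19, DHCR7 at 0.74, SREBF2 at 0.73 and SCD at 0.70, among 804 genes called. Without untreated 2, 0 members were called, among 150 genes called. Relative to the median of all genes the sterol median was 0.32 without untreated 1 and 0.00 without untreated 2, and the fatty acid median 0.35 and -0.05.

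VEM+BOR was set against BOR to ask what differs when VEM is added. VEM+BOR was below both BOR libraries for 29 of 31 members, where 24.2% of all genes were. All 18 sterol enzymes were below both, from SC5D at 518.7 against 554.5 and 622.9 to MVD at 1276 against 1687 and 8867. The 2 exceptions were SREBF1, which lay between the BOR libraries, and ELOVL6, which lay above both. These counts depend on the scale of BOR 2. With libraries scaled to their totals, VEM+BOR lay above BOR 2 also for SC5D, STARD4, SCAP and ACACA. For SC5D the log2 differences from the untreated mean were then 0.48 in VEM+BOR and 0.18 in BOR 2. VEM+BOR was also below VEM for 23 members, where 44.9% of all genes were, and below BOR 1 for 29, where 50.9% were, by a median log2 difference of -0.33 over the sterol enzymes and -0.20 over the fatty acid enzymes.

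The median log2 change in this fit was -1.03 over the sterol enzymes and -0.98 over the fatty acid enzymes, against -0.02 over all 15293 genes tested. ACSS2 was at -2.26 (SE 1.28), MVD at -1.60, MVK at -1.59, FADS2 at -1.48, HSD17B7 at -1.45 and MSMO1 at -1.44, and ELOVL6 was at 1.61. None of the 31 members passed limma, where 0% of all genes passed, and 0 had an unadjusted p under 0.05, where 0.131% of all genes did. Without BOR 1 limma called 20 members lower and ELOVL6 higher, among 3648 genes called, and without BOR 2 it called 0. This comparison shares its BOR libraries with the one of BOR against untreated cells, so the same high BOR 2 values enter both. With libraries scaled to their totals SC5D and ACACA turned positive, at 0.09 and 0.07.

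Sterol and fatty acid enzymes were set side by side in each library. The medians of the sterol enzymes and the fatty acid enzymes were 0.30 and 0.27 in BOR 1, 1.49 and 1.77 in BOR 2, 0.31 and 0.37 in VEM and -0.02 and 0.12 in VEM+BOR. The median untreated gap was -0.38 and -0.47, so among the treated libraries only BOR 2 had medians larger in size than the gap. In BOR 2 the sterol enzymes ran from 0.44 (TM7SF2) to 2.83 (MVK), while the fatty acid enzymes ran from -2.61 (ELOVL6) to 2.99 (ACSS2). With libraries scaled to their totals the BOR 2 medians were 0.89 and 1.17. BOR 1 differed from the untreated mean by more than the untreated gap for 10 of 18 sterol enzymes and 3 of 8 fatty acid enzymes, where 30% of all genes did. BOR 2 did so, on the printed scale, for 18 of 18 and 7 of 8, where 72.7% did. VEM did so for 9 of 18 and 2 of 8, where 34.7% did, and VEM+BOR for 5 of 18 and 1 of 8, where 37.4% did. The difference between the lists was not tested, and the members of a list are not independent.

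**Figure D4:**
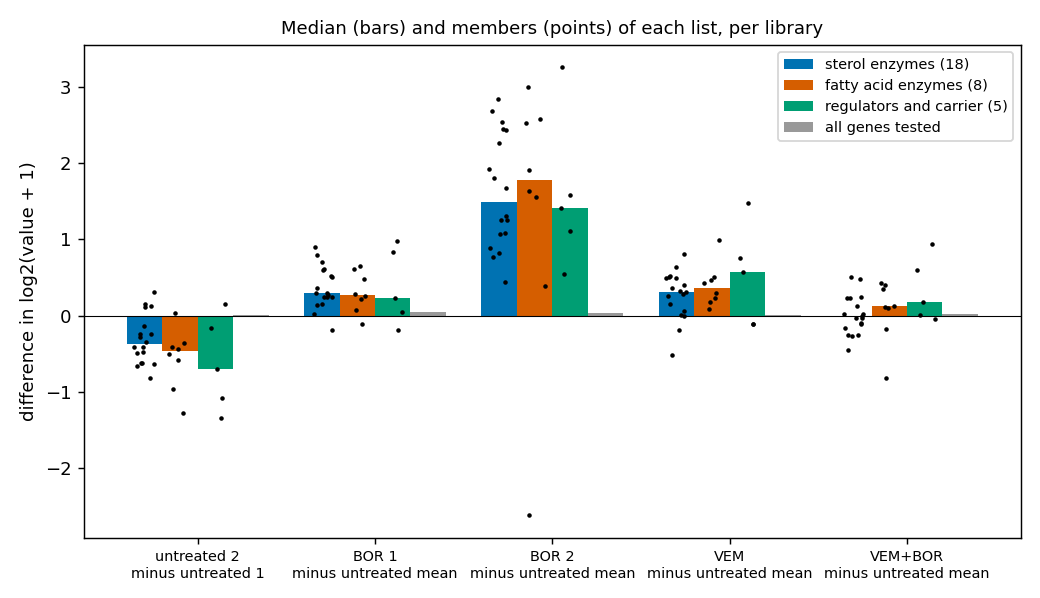
Median log2 difference (bars) and single members (points) of the sterol enzymes, the fatty acid enzymes, the control and transport genes and all genes tested (bar only), for untreated 2 minus untreated 1 and for each treated library minus the untreated mean. The sterol and fatty acid bars are -0.38 and -0.47 for the untreated gap, near 0.3 in BOR 1 and VEM, 1.49 and 1.77 in BOR 2, and -0.02 and 0.12 in VEM+BOR.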

How the data were processed

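The treatment labels gave the groups. Replicates were numbered by accession, and the numbers pair nothing. Random-primed, poly-T selected mRNA was sequenced as read pairs, per the labels' protocols. No strand-marking step is named there, so a gene and its antisense partner share reads that cannot be told apart. The submitters' processing notes list CASAVA, DESeq2 1.20.0, edgeR 3.22.5, featureCounts 1.5.0-p3 and HISAT2 2.0.5 without their roles. No genome build is named in these notes or protocols. Coordinates of genes equal those of GENCODE 29 (GRCh38) for 26704 of 26704 genes.

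The authors deposited 3 tables, each with a normalised signal per gene and library, namely read counts over a library factor. Deposited log2 fold changes, with the deposited p-value and adjusted p-value of each gene, are the authors' and were used only where their table is named. In each column 100% of values were whole multiples of 1 step within 0.001, which gave back the reads. The step of VEM is too near 1 to check, so no count test used VEM. On these reads edgeR 4.0.16 called 0 genes for BOR and 85 for VEM+BOR, and DESeq2 1.42.0 called 28 and 64.

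The main test was limma 3.58.1 (R 4.3.3), two-sided, with a trend of variance on mean, on log2(value + 1), leaving out genes under a mean of 10, with a Benjamini-Hochberg adjusted p under 0.05 over all genes tested. This scale understates changes of low genes. Fits against untreated cells stayed within 1 table. Other comparisons and the printed values used 1 scale, by median-of-ratios factors over 17760 of the 23519 genes in all tables. A group of 1 library was assumed to vary like the pair in its fit. The code was tested on simulated data. All members could be named. Values in every library are given for the 4 sterol and 3 fatty acid enzymes with the largest change in each comparison, for SREBF1, SREBF2, SCAP, INSIG1, STARD4, HMGCS1, SQLE, FASN and SCD, and for any member past the threshold. Of each other lipid list at most 3 genes are named, those with the largest change against untreated cells. Members and lists were chosen with earlier results of these data known. Alternatives were other pseudocounts, no filter, TMM and library-total scaling, all libraries in 1 fit, each library left out, and edgeR and DESeq2.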

Additional observations from a re-analysis of the deposited data

How the results depend on the processing

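No member passed the threshold in the 5 comparisons, and members passed only without BOR 1, without untreated 1 (libraries with VEM) and with library totals (INSIG1 in VEM), as given above. Under settings that kept every library, 19 of 992 member values turned sign, all with a reported size of at most 0.20. Leaving out a library turned 54 of 434. Genes past the threshold over all genes were 0 for BOR, 28 with DESeq2 and 0 to 4008 with 1 library left out. They were 7 for VEM, 0 with no filter, 40 with library totals, 0 with all 6 libraries in 1 fit and 0 with 1 library left out. They were 30 for VEM+BOR, 0 with no filter, 51 with TMM, 88 with library totals, 0 with all 6 libraries in 1 fit, 85 with edgeR, 64 with DESeq2 and 0 with 1 library left out. They were 34 for the libraries with VEM, 2 with no filter, 12 with TMM, 6 with library totals and 7 to 804 with 1 library left out. They were 0 for VEM+BOR against BOR, and 0 to 3648 with 1 library left out. The cause was not tested. The sterol median for BOR was 0.95, 0.65 with library totals and 0.30 to 1.50 with 1 library left out, and the fatty acid median 1.03 was 0.27 to 1.77. For VEM+BOR against BOR the sterol median was -1.03, -0.76 with library totals and -1.57 to -0.33 with 1 library left out, and the fatty acid median -0.98 was -1.75 to -0.20. Library totals moved the median of all genes by -0.30 for BOR and by 0.27 for VEM+BOR against BOR, and relative to it the sterol medians were 0.91 and -1.02, beside 0.91 and -1.01 before. Where leaving out a library left 1 against 1, only 1 other group still held 2 libraries and gave the spread. When an untreated library was dropped from the VEM or VEM+BOR comparison, that group was BOR, whose 2 libraries stood far apart. The counts past the threshold there cannot show how far these calls depend on an untreated library. When a BOR library was dropped from VEM+BOR against BOR, the untreated pair gave the spread. No paired analysis was possible because the labels carry no replicate numbers shared between groups. Member values were at least 93.9 in every library, and the number of libraries limits the precision.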

Other observations

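Genes that process SREBPs and handle sterols outside the synthesis pathway were looked at in lists chosen with earlier results known. In the BOR fit the median over sterol trafficking genes was 0.55 on the log2 scale, with 8 of 8 positive and 0 past the threshold, against 0.04 and 52.4% positive over all genes. NPC1, which exports cholesterol from lysosomes, was at 609.6 and 376.4 in untreated cells, 568.2 in BOR 1, 1773 in BOR 2, 684.9 in VEM and 679.8 in VEM+BOR. OSBP, which moves sterol between organelles, was at 2673 in BOR 2 and 831.2 to 961.8 elsewhere. STARD5 was highest in VEM, at 122.8 against 70.94 and 37.73 in untreated cells. Among 9 genes of SREBP processing, with a median of 0.25 in the BOR fit, INSIG2 was at 1666 in BOR 2 and 294.1 to 395.6 elsewhere. The site-2 protease gene MBTPS2 was at 45.35 in BOR 2 and 250.3 to 332.9 elsewhere, and the COPII coat gene SEC23A was at 162.7 in BOR 2 and 531.2 to 939.5 elsewhere. Of the 9 genes 5 were above both untreated libraries in BOR 2, where 43.8% of all genes were, and 4 below, where 41.7% were. Among the LXR, export and storage genes MYLIP was at 2054 in BOR 2 and 542.8 to 718.9 elsewhere. Of the 7 genes of that list 4 were above both untreated libraries in BOR 2 and 1 below.

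Fatty acid genes outside the synthesis list had lower medians in BOR 2. The 20 tested genes of elongation, activation and supply had a median log2 difference of 0.30 in BOR 2, against 1.77 for the 8 fatty acid synthesis enzymes, and the 9 oxidation genes had -0.18. ELOVL4, an elongase, was at 354.8 in BOR 2 and 28.06 to 74.23 elsewhere, and ACSL4, which activates polyunsaturated fatty acids, was at 461.5 in BOR 2 and 1560 to 3118 elsewhere. The oxidation enzyme ACADM was at 148.1 in BOR 2 and 942.3 to 1192 elsewhere. The lipid droplet genes HILPDA and PLIN2 were at 4994 and 9130 in BOR 2, against 247.1 to 319.3 and 932.8 to 1323 elsewhere. Of the 5 genes of that list 4 were above both untreated libraries in BOR 2, where 43.8% of all genes were, and 1 below, where 41.7% were. The 7 genes of the other mevalonate branches had a median of 0.24 in BOR 2 and 0.08 in BOR 1, and COQ2 had the highest change there, with 720.7 and 951 in BOR 1 and 2 against 474.7 and 604.7 in untreated cells. In these lists 0 genes passed limma in any of the 5 comparisons, with 0 to 2 genes of a list at an unadjusted p under 0.05, and the differences between lists were not tested.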
